A study of Homo sapiens with 8 samples.

Results

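The genes described here are 10 genes of the actin-based contractile apparatus: ACTA2, TAGLN, MYL9, CALD1, the calponins CNN1, CNN2 and CNN3, and the tropomyosins TPM1, TPM2 and TPM4. They were listed by name, and every probe set whose platform annotation gives exactly 1 symbol from the list was taken, which gave 11 of 8746 probe sets on the 12 h arrays and 23 of 22215 on the 6 h arrays. All 10 genes were represented at both times, among 7713 genes named by such a probe set at 12 h and 11963 at 6 h. The samples were MRC5 cells, a line of diploid fibroblasts from human lung, grown in medium with serum and given either 10 µM of 8-oxoguanine, an oxidised form of guanine, or a mock treatment of solvent alone. At 12 h there were 3 arrays of 8-oxoguanine-treated cells and 3 of mock-treated cells, labelled as technical replicates by extract, and at 6 h there was 1 array of each, of another array type. Each time point asks which transcripts differ after exposure from those of its own mock. Since no label ties the extracts to separate cultures, p-values rest on the spread among extracts alone, and that spread may be technical.

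Smooth muscle cells and activated fibroblasts contract when myosin pulls on actin filaments. The smooth muscle isoform of actin and its partners (a regulatory myosin light chain, calponin, caldesmon, transgelin and tropomyosin) make up this machinery, and the same genes are widely used as markers of the myofibroblast state. Many of them are transcribed through serum response factor, SRF, which binds a DNA element called the CArG box and works with the actin-sensing cofactors MRTFA and MRTFB.

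The RefSeq sequences before the start sites (GRCh38.p14) of 4 of the genes are printed because the results turn on them: CNN3 and TPM4 passed the test at 12 h, CNN2 is a calponin set against CNN3, and ACTA2 is the smooth muscle actin itself. Those of CNN1, also set against CNN3, and of TPM1 and TPM2, set against TPM4, are not printed. Each line gives the 250 bases before an annotated start, read along the gene's strand, and capitals mark a CArG box (CC, then 6 bases that are A or T, then GG) or the MCAT element CATTCC, which TEAD factors bind, searched on both strands. For genes with several windows, 1 that holds a motif was chosen: 1 of 3 for TPM4, 1 of 2 for ACTA2 and 1 of 2 for CNN3. In the windows printed, TPM4 and CNN2 hold an exact CArG box, ACTA2 holds 2 CArG boxes with 1 mismatch each and 1 MCAT element, and CNN3 holds 1 MCAT element. The other ACTA2 window and the other CNN3 window hold none of these motifs, and both other TPM4 windows hold a CArG box with 1 mismatch. No marked motif overlaps another.
TPM4, chr19:16067288-16067537, plus strand: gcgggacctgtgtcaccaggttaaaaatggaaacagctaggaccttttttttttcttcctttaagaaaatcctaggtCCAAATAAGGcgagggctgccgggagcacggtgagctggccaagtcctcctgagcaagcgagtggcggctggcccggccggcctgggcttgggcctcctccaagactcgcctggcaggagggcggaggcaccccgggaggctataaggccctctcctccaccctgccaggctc
CNN2, chr19:1026358-1026607, plus strand: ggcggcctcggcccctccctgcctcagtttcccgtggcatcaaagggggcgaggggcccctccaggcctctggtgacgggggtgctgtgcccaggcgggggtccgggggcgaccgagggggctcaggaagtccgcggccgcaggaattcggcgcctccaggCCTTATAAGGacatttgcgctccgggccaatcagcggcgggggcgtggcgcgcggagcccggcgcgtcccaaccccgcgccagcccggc
ACTA2, chr10:88952774-88953023, minus strand: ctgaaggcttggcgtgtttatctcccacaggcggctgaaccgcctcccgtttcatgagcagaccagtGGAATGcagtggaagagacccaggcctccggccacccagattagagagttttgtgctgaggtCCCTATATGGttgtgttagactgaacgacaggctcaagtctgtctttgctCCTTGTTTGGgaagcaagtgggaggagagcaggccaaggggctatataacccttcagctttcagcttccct
CNN3, chr1:94925770-94926019, minus strand: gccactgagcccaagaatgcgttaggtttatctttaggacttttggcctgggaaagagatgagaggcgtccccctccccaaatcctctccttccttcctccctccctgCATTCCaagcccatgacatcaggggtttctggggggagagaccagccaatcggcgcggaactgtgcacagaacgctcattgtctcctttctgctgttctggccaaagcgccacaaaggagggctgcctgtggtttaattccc
RefSeq gives 16 such windows for 8 of the 10 genes, all but TAGLN and MYL9. Of these 16, 2 held an exact CArG box (2 genes), against 1.16% of all 35116 windows. One with at most 1 mismatch was held by 7 windows of 4 genes, against 16.8% of all windows. An MCAT element was held by 4 windows of 3 genes, against 11.9%. Windows of the same gene are not independent, so the window counts overstate the number of separate cases. The windows of CNN1, TPM1 and TPM2 held none of these motifs. A match is a description of the letters, not of a bound site.

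Before the results, the arrays are described in brief. Values are MAS5 signals, 1 per probe set on a linear scale, and array medians lay between 143 and 165. Fibroblast markers were bright: COL1A1, COL1A2 and VIM had mean signals of 15228, 21233 and 18210 in treated cells and 16569, 21235 and 18748 in mock cells at 12 h. Of 10 fibroblast markers tested, 4 rose (LUM, POSTN, PDGFRA and PDGFRB, with log2 fold changes of 1.07, 0.47, 0.36 and 0.30), beside 6.59% of all probe sets tested. The others did not pass, with log2 fold changes from -0.12 (COL1A1) to 0.17 (COL3A1). The summed signal was 66364 to 80464 on treated and 65918 to 78709 on mock arrays. The part of these markers in the results below was not tested. Summed over 5 skeletal and cardiac muscle markers, the signal was 209 to 291 on treated and 225 to 341 on mock arrays, and DES, or desmin, had 45.0 ± 9.56 and 42.0 ± 17.9 (SD, n = 3 each). Endothelial markers summed to 209 to 260 and 235 to 275 (5 genes), blood markers to 291 to 346 and 256 to 371 (4 genes), and epithelial markers to 4155 to 4449 and 4010 to 4263 (6 genes), nearly all of it KRT18. Of the 3 epithelial markers tested KRT19 fell (116 ± 21.1 against 277 ± 6.24, log2 fold change -1.27, SE 0.17, limma adjusted p = 0.00145). KRT8 (0.49, adjusted p = 0.117) and KRT18 (0.12, adjusted p = 0.284) lay above 0 and did not pass, so the list had no common direction. CDH1 and EPCAM were at mean signals of 7.10 and 10.5 in treated and 10.8 and 17.6 in mock cells. In a culture read in bulk, fewer cells of a type and less RNA per cell cannot be told apart.

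At 12 h, 2 of the 10 genes passed the test, both lower in treated cells: CNN3, or acidic calponin, which fell to 78.7% of its mock level, and TPM4, a non-muscle tropomyosin, which fell to 83.5%. None passed in the other direction. ACTA2 stood at 112% of its mock level and was below 0.05 only before adjustment. The other 7 genes had overlapping groups. Their largest log2 fold change was -0.23 for CNN1, close to the -0.26 of TPM4. The spread of CNN1 between arrays of a group was wider (pooled SD 0.21 on the log2 scale, against 0.05 for TPM4).

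The 12 h test was limma's moderated test on log2 signals over the 5248 probe sets kept by a filter on low signal (93.9), two-sided, with Benjamini-Hochberg adjusted p below 0.05 as the threshold. Of all probe sets tested, 13.2% passed it (6.65% lower and 6.59% higher in treated cells), beside 2 of 10 member probe sets. A share of 2 in 10 stands near that of the whole array and is not a result about contractile genes as a group. The median log2 fold change of the members was -0.06, against 0.01 over all probe sets tested, and their median absolute change was 0.15, against 0.17. Members were brighter, with a median signal of 3842 against 427, and these values were not matched for signal. Of the 11 member probe sets, 10 passed the filter and each stands for 1 gene. The 11th, a second CALD1 probe set (205525_at), had signals of 86.5, 65.3 and 69.8 in treated cells and 72.5, 76.9 and 43.4 in mock cells, below the filter limit, and was not tested.

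ACTA2 encodes smooth muscle alpha-actin, the filament protein by which myofibroblasts are usually recognised. Its signals were 3902, 4049 and 3848 in treated cells and 3457, 3538 and 3508 in mock cells. Every treated array lay above every mock array, the lowest treated value being 1.09 times the highest mock value. The log2 fold change was 0.17 (SE 0.06, 95% confidence interval 0.03 to 0.31), with an unadjusted p of 0.0227 and an adjusted p of 0.106 in limma, so the gene did not pass. Its spread between arrays of a group was the smallest of the 10, with a pooled SD of 0.03 on the log2 scale. The median was 0.08 over the 10 members and 0.15 over all probe sets tested, most of which were dimmer. TAGLN encodes transgelin, a calponin-family actin-bundling protein and an early smooth muscle marker. It had signals of 8668, 8769 and 9485 in treated cells and 7965, 8965 and 7810 in mock cells. The groups overlapped through mock replicate 2, and the log2 fold change was 0.12 (SE 0.08, 95% confidence interval -0.05 to 0.30).

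MYL9 encodes the regulatory light chain whose phosphorylation switches on smooth muscle and non-muscle myosin. Its signals were 4864, 4750 and 4629 in treated cells and 4743, 5159 and 4869 in mock cells, which overlapped. Its log2 fold change of -0.05 (SE 0.07) had a 95% confidence interval of -0.20 to 0.09, which is 87.1% to 107% of the mock level. CALD1 encodes caldesmon, which binds actin and tropomyosin and restrains the myosin ATPase. Its tested probe set (201616_s_at) had 2396, 2302 and 2216 in treated cells and 2457, 2180 and 2410 in mock cells. These overlapped too, and the log2 fold change was -0.03 (SE 0.07, 95% confidence interval -0.19 to 0.14).

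The calponins bind actin and dampen myosin's activity; CNN1 is the basic, smooth muscle form, while CNN2 and CNN3 are made in many cell types. CNN3 had signals of 2384, 2474 and 2503 in treated cells and 3185, 3155 and 3016 in mock cells. All treated arrays were below all mock arrays, the highest treated value being 0.830 times the lowest mock value. The log2 fold change was -0.35 (SE 0.06, 95% confidence interval -0.49 to -0.20, limma adjusted p = 0.00722). The call held under each of the 13 other settings run at 12 h, with adjusted p between 0.00476 and 0.0451. CNN2 had 1732, 1737 and 1892 in treated cells and 1578, 1844 and 1730 in mock cells, which overlapped, with a log2 fold change of 0.06 (SE 0.08, 95% confidence interval -0.12 to 0.24). CNN1 varied most between arrays of a group (pooled SD 0.21 on the log2 scale), with signals of 843, 690 and 589 in treated cells and 765, 778 and 918 in mock cells. The treated arrays alone spanned most of that range, and the log2 fold change of -0.23 (SE 0.13) had a 95% confidence interval of -0.52 to 0.07, wide enough to include the value of CNN3.

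Tropomyosins lie along the actin filament and set which proteins reach it; TPM1 and TPM2 are the main muscle genes and TPM4 makes cytoplasmic forms. TPM4 had signals of 3587, 3593 and 3733 in treated cells and 4214, 4554 and 4303 in mock cells. The groups did not overlap. Its log2 fold change was -0.26 (SE 0.06, 95% confidence interval -0.40 to -0.11, limma adjusted p = 0.0271). The direction held under all 13 settings, but the call was lost under 6 of them: without the intensity trend (0.0922), with the replicate number as a block (0.0683), without 8-oxoguanine replicate 1 (0.116) or 2 (0.106), and without mock replicate 1 (0.0525) or 3 (0.0760). TPM1 had 5953, 5671 and 5297 in treated cells and 6854, 5768 and 6441 in mock cells. Mock replicate 2 fell within the treated range, and the log2 fold change was -0.17 (SE 0.08, 95% confidence interval -0.35 to 0.01, limma adjusted p = 0.210). TPM2 had 4003, 4642 and 4287 in treated cells and 4326, 5024 and 4268 in mock cells, with a log2 fold change of -0.07 (SE 0.09, 95% confidence interval -0.27 to 0.12).

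**Figure D1:**
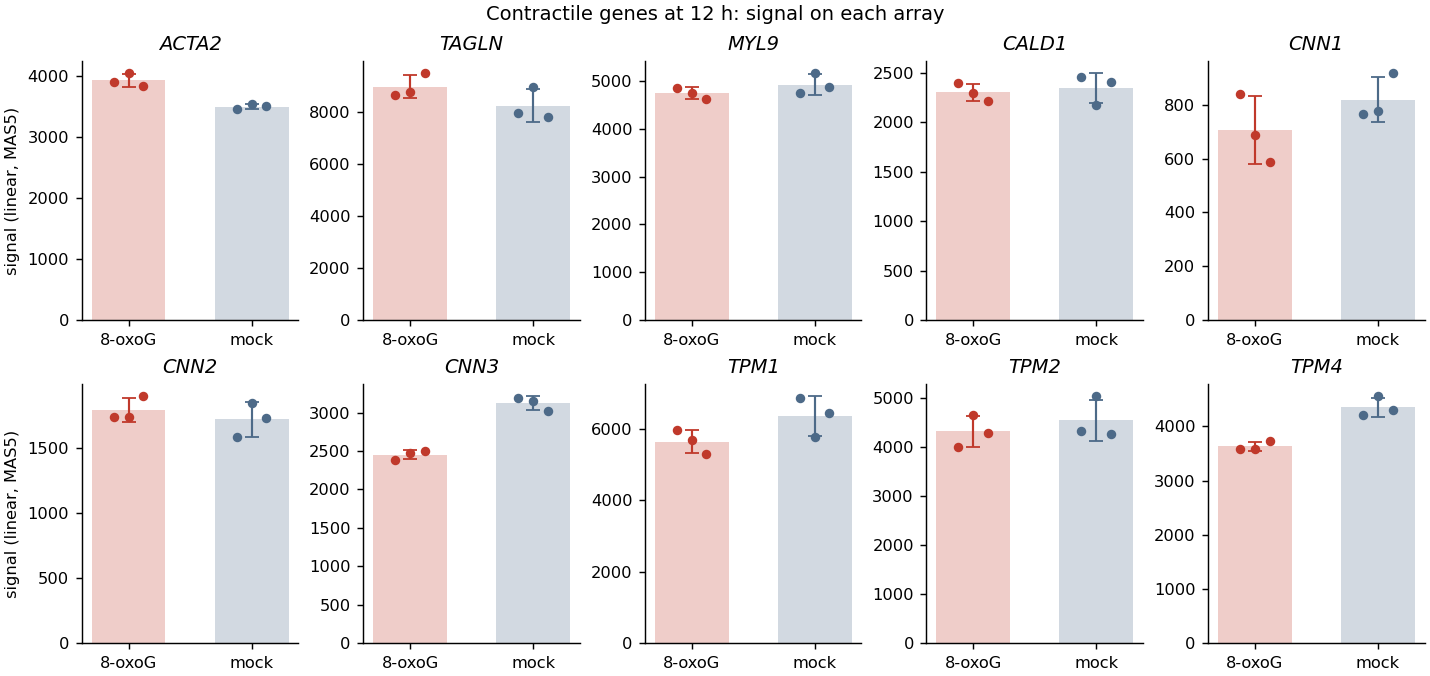
Signals of the 10 contractile genes at 12 h, 1 panel per gene, with linear signal on the vertical axis from 0 and treated (left, red) beside mock (right, blue) arrays. Points are single arrays, bars are means and whiskers are SD (n = 3). The points of the groups are apart in ACTA2, CNN3 and TPM4 and overlap in the other 7 genes.

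The groups did not overlap at 3 of the 10 genes (ACTA2 higher, CNN3 and TPM4 lower), while this held for 33.9% of all probe sets tested, 17.4% higher and 16.5% lower in treated cells. Arrays differed among themselves within a treatment, and not alike for every gene. Mock replicate 2 gave the highest mock signal of 6 genes (ACTA2, CNN2, MYL9, TAGLN, TPM2 and TPM4) and the lowest of CALD1 and TPM1. That array also had the highest median of the mock arrays (164, against 157 and 157). Its highest signal was 25096, against 19678 and 20775. The part of this array-wide difference in the member values was not tested. For the actin control probes, signal near the 3' end divided by signal near the 5' end came to 1.03, 1.07 and 0.999 in treated cells, against 0.995, 0.889 and 0.946 in mock cells. This measure of RNA or labelling quality was thus higher on each treated array, and its part in the changes of ACTA2, CNN3 and TPM4 was not tested. The same ratio for GAPDH overlapped between the groups, between 0.779 and 0.843.

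**Figure D2:**
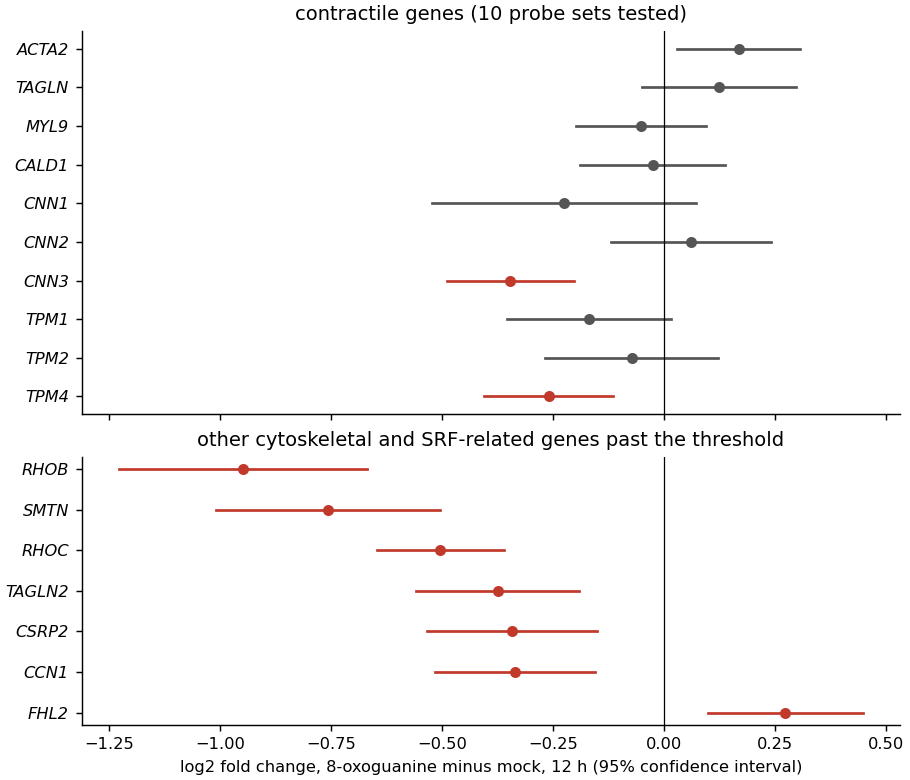
Log2 fold changes at 12 h, treated minus mock, with 95% confidence intervals from the limma fit, for the 10 contractile genes (top) and for the 7 genes of the related lists that passed the threshold (bottom). Red marks adjusted p below 0.05, grey the rest. The intervals of the contractile genes lie between -0.52 and 0.31, while RHOB and SMTN sit at -0.95 and -0.76.

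Whether related genes differed in their response was tested within each array, as the difference of their log2 signals, over 6 pairs. CNN3 minus CNN2 was 0.46, 0.51 and 0.40 in treated cells and 1.01, 0.77 and 0.80 in mock cells. The groups were apart, by -0.41 (SE 0.08; exact two-sided permutation p = 0.1, adjusted p = 0.3 over the 6 pairs), where 0.1 is the smallest p that 3 arrays against 3 allow. TPM4 minus TPM2 was -0.16, -0.37 and -0.20 in treated cells and -0.04, -0.14 and 0.01 in mock cells. These were apart as well, by -0.19 (SE 0.08, exact permutation p = 0.1, adjusted p = 0.3). In the other pairs the arrays overlapped: the difference was -0.12 (SE 0.20) for CNN3 minus CNN1, -0.28 (SE 0.21) for CNN1 minus CNN2, -0.09 (SE 0.13) for TPM4 minus TPM1 and -0.10 (SE 0.17) for TPM1 minus TPM2, with exact permutation p between 0.3 and 0.7. With 0.1 as the smallest possible p, the test could not pass 0.05 for any of the 6 pairs. It therefore cannot show that CNN3 differed from CNN2 or CNN1, or TPM4 from TPM2 or TPM1. Leaving out 1 array turned the sign of CNN3 minus CNN1 (range -0.26 to 0.03) and of TPM4 minus TPM1 (range -0.17 to 0.01).

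**Figure D3:**
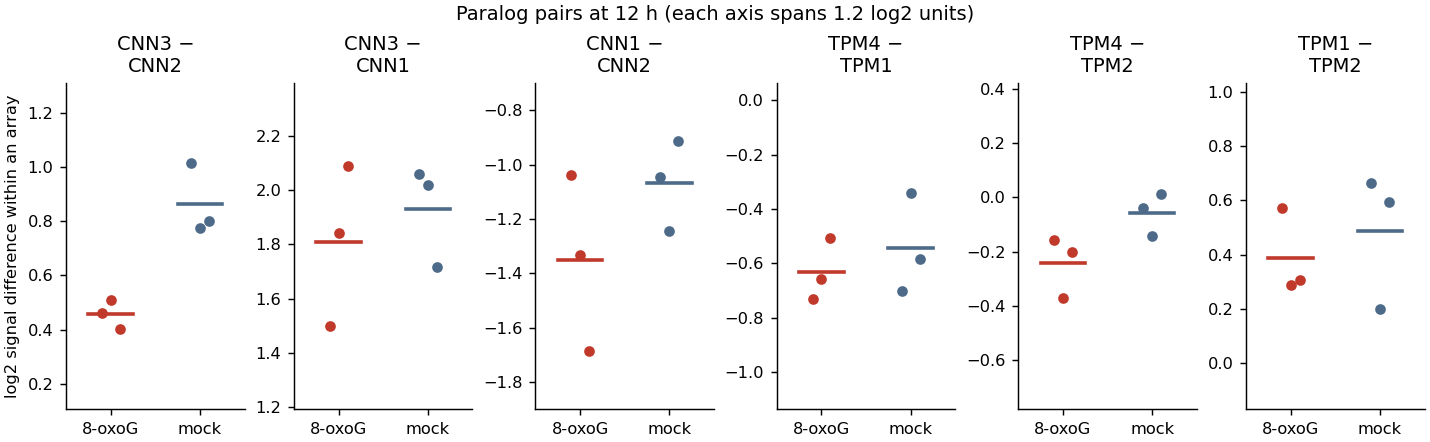
Within-array differences of log2 signal between paralogs at 12 h, treated (left, red) and mock (right, blue) in each panel. Points are arrays and lines are means (n = 3), and every vertical axis spans 1.2 log2 units. The points are apart for CNN3 minus CNN2 and for TPM4 minus TPM2.

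The genes whose log2 signals over the 6 arrays at 12 h followed these members most closely were found by Pearson's r, as a description. For ACTA2 they were OPN3, ICAM1 and GOT1 (r = 0.990 each), for CNN3 they were PGK1, VAPB and S100A4 (0.997, 0.993 and 0.991), and for TPM4 they were HSPB1, WNT5B and SLC25A4 (0.998, 0.998 and 0.997). The arrays fall into the groups of treatment, so such an r is set mostly by the difference between treatments.

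The surrounding pathway was read through 5 lists holding 72 genes, of which 46 were tested at 12 h. Of these, 7 passed, 6 lower and 1 higher in treated cells, which is 15.2% beside 13.2% of all probe sets tested, and their median log2 fold change was -0.05. The count depended on the setting: it was 3 without the intensity trend, 4 without any one array other than mock replicate 2, and 11 without mock replicate 2. Over all 5248 probe sets tested, the calls numbered 695 as reported and 484 without the trend. They were 371 to 603 without any one array other than mock replicate 2, and 649 without mock replicate 2. Of the 12 tested genes of myosin and its regulation, 2 fell, beside 6.65% of all probe sets tested. RHOB, a small GTPase, had signals of 1633, 1552 and 1277 in treated cells and 2564, 3406 and 2663 in mock cells. This was a fall of 0.95 on the log2 scale (SE 0.12, limma adjusted p = 0.00138). RHOC, a small GTPase that acts on the actin cytoskeleton, had 4387, 4242 and 4307 in treated cells and 6039, 6364 and 5942 in mock cells, with a log2 fold change of -0.50 (SE 0.06, adjusted p = 0.00120). The other 10 of the 12 tested genes of myosin and its regulation did not pass. Among them were ROCK1 (0.22, SE 0.08, adjusted p = 0.116) and PPP1CB, a catalytic subunit of myosin phosphatase (0.28).

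Among 10 tested genes of smooth muscle differentiation, 2 fell, 1 rose and 7 did not pass. Of all probe sets tested, 6.65% were called lower and 6.59% higher, and the same shares stand beside the counts of the lists below. Counts in lists this short are not a result about a pathway. SMTN encodes smoothelin, an actin-binding protein of contractile smooth muscle, and had signals of 511, 564 and 531 in treated cells and 859, 1068 and 806 in mock cells. It fell by 0.76 on the log2 scale (SE 0.11, limma adjusted p = 0.00258). CSRP2, a LIM-domain protein of smooth muscle, had a log2 fold change of -0.34 (SE 0.09, adjusted p = 0.0270), and FHL2, a LIM-domain cofactor, had 0.27 (SE 0.08, adjusted p = 0.0465). PDLIM5 (0.41, adjusted p = 0.0800) and LMOD1, or leiomodin (0.34, adjusted p = 0.293), did not pass. Of 16 tested other actins and actin-binding genes, TAGLN2, which encodes the non-muscle transgelin, fell (-0.37, SE 0.08, adjusted p = 0.0155) and 15 did not pass, among them the cardiac actin gene ACTC1 (-0.67, SE 0.32), TLN1 (0.20) and ACTN1 (0.19).

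SRF and its cofactors were thinly covered at 12 h, with SRF (0.15, SE 0.13) and ELK3 (-0.06) tested and neither past the threshold. Of 9 tested SRF targets outside muscle, CCN1, a secreted matricellular protein, fell (-0.34, SE 0.08, adjusted p = 0.0229), FHL2 rose, as counted above, and 7 did not pass, among them CCN2, or connective tissue growth factor (-0.28, SE 0.12, adjusted p = 0.154), and THBS1 (0.25). RHOB, RHOC and SMTN passed under each of the 13 other settings, whereas the call was lost under 3 of them for TAGLN2, 5 for CCN1, 6 for CSRP2 and 8 for FHL2. With 1 array left out, ACTC1, LMOD1 and CCN2 each passed without mock replicate 2 (adjusted p = 0.0104, 0.0294 and 0.0195).

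At 6 h, 1 array per treatment allowed no test and no replicate check, so the values describe the arrays. Ratios at 6 h depended on brightness: the highest signal was 22762 in treated and 10699 in mock cells, and among the 328 probe sets above 8000 in at least 1 of the arrays the median log2 ratio was 0.67. Of the 23 member probe sets, 3 exceeded 8000, namely TAGLN (205547_s_at) and the TPM1 probe sets 210986_s_at and 210987_x_at. To show this effect, each ratio is also given after quantile normalization and relative to the median ratio of the 500 probe sets nearest in signal. For the brightest probe sets that window is too wide, and a window of 100, chosen after the values were seen, is given for TAGLN and TPM1.

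ACTA2 (200974_at) read 7277 in treated and 5402 in mock cells, giving a log2 ratio of 0.43. Probe sets of like signal had a median of 0.42, so relative to them the ratio was 0.01, and it was 0.06 after quantile normalization. The other ACTA2 probe set (215787_at) was dim, at 31.3 and 28.3. TAGLN read 13396 in treated and 9904 in mock cells. Its log2 ratio was 0.44 as deposited, -0.44 with quantile normalization, -0.12 against 500 neighbours and -0.45 against 100. MYL9 had 7285 and 5590, a ratio of 0.38 that became 0.01 with quantile normalization and -0.04 against its neighbours. For these 3 genes the deposited ratio was therefore close to or below that of other transcripts as bright.

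CNN3 read 3740 in treated and 4195 in mock cells, giving a log2 ratio of -0.17. It stayed below 0 under each scaling, at -0.05 with median centring, -0.29 with quantile normalization and -0.32 against its neighbours. CNN2 (2161 and 2244) and CNN1 (1493 and 1578) had ratios of -0.05 and -0.08, which were 0.06 and 0.04 with median centring. TPM2 (204083_s_at) read 6463 in treated and 7090 in mock cells, a ratio of -0.13, while probe sets of like signal had a median of 0.45. Against them it was -0.58, and it was -0.62 with quantile normalization. A second, dimmer TPM2 probe set (212654_at, 259 and 301) had -0.22, with -0.14 against its neighbours.

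The 4 TPM1 probe sets gave log2 ratios of 0.61 (210987_x_at), 0.42 (210986_s_at), 0.23 (206116_s_at) and -0.19 (206117_at). Against 100 neighbours of like signal they were -0.01, -0.20, -0.08 and -0.12, and lay closer together. The TPM4 probe set tested at 12 h (212481_s_at) read 4146 in treated and 3815 in mock cells, a ratio of 0.12 that became -0.02 with quantile normalization and -0.04 against its neighbours. The other (209344_at, 4289 and 4425) had -0.05, and -0.25 against its neighbours.

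CALD1 was read by 8 probe sets at 6 h, and they disagreed. The probe set 201617_x_at read 2745 in treated and 4334 in mock cells, a log2 ratio of -0.66 that stayed between -0.54 and -0.78 under the other scalings. By contrast 201616_s_at (3400 and 3172) had 0.10, 201615_x_at (1297 and 1245) had 0.06, 212077_at (6465 and 5981) had 0.11 and 214880_x_at (251 and 280) had -0.16. The remaining 3 were dim: 205525_at (87.7 and 83.3) had 0.07, 215198_s_at (78.2 and 59.7) had 0.39 and 215199_at (16.2 and 44.8) had -1.46. Which caldesmon transcripts each probe set reads is not given by the annotation used here, so the low ratio of 201617_x_at cannot be assigned to an isoform.

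**Figure D4:**
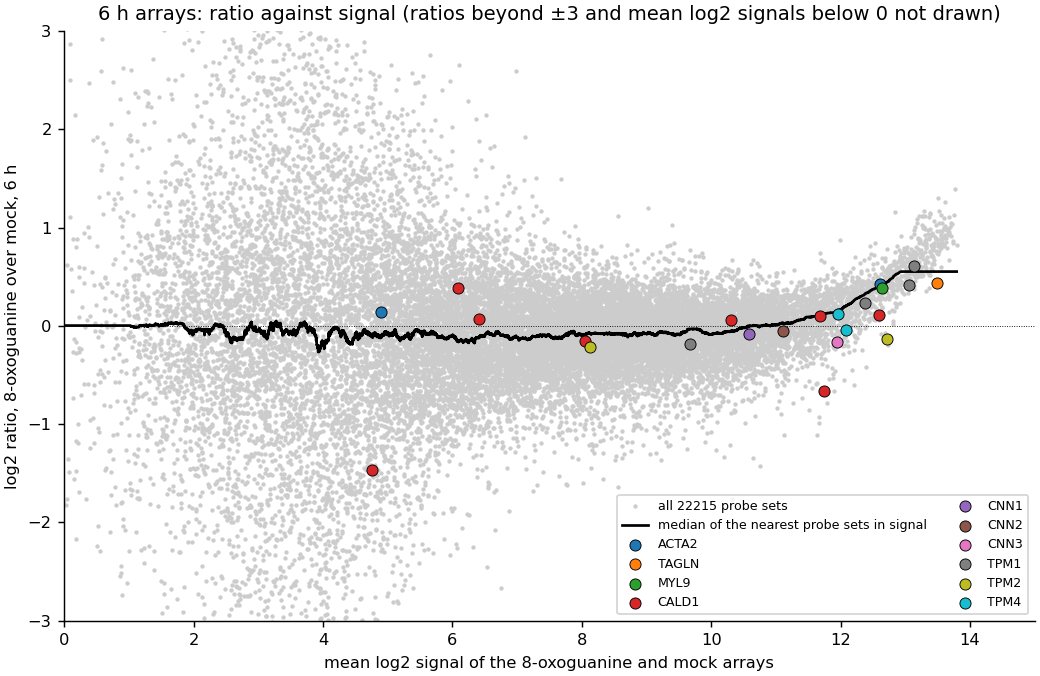
Log2 ratio of the treated over the mock array at 6 h (vertical) against the mean log2 signal (horizontal), with all probe sets in grey, the 23 member probe sets in colour by gene and the running median of the 500 nearest probe sets as a line. The line rises to 0.55 at the bright end, where it is flat because the brightest probe sets share 1 window of 500. Relative to the line, ACTA2 (200974_at) stands at 0.01, MYL9 at -0.04, TPM2 (204083_s_at) at -0.58, CALD1 201617_x_at at -0.78 and the dim CALD1 215199_at at -1.36.

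Of the 23 member probe sets, 1 (215199_at, dim) differed by 2-fold or more, beside 14.3% of all probe sets on the 6 h arrays. Above the median signal of 148, where 1.34% of probe sets did so, it was 0 of 19. These 19 split into 10 higher and 9 lower on the treated array as deposited, with a median log2 ratio of 0.06. The split was 13 and 6 with median centring, 4 and 15 with quantile normalization and 3 and 16 against neighbours of like signal. Across the deposited, centred, quantile and neighbour-corrected values, 8 of the 19 kept 1 sign, among them ACTA2 (200974_at, above 0), CNN3 and both TPM2 probe sets (below 0).

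Set side by side for the same probe set, CNN3 was below 0 at 6 h (-0.17) and at 12 h (-0.35), and ACTA2 was above 0 at both (0.43 and 0.17). TPM4 (212481_s_at) had 0.12 at 6 h and -0.26 at 12 h, and TPM1 (210986_s_at) had 0.42 and -0.17. With the 6 h ratio taken against 500 neighbours, these 4 stood at -0.32, 0.01, -0.04 and -0.14 at 6 h, on the same side of 0 as at 12 h. These shared signs say little. Of the 19 member probe sets above the median signal, 16 lay below 0 in this way, and ACTA2 and TPM4 were close to 0. TAGLN (-0.12 at 6 h and 0.12 at 12 h) and CNN2 (-0.09 and 0.06) lay on opposite sides under that correction. Since the times were read on different array types, and 6 h on 1 array per treatment, no test was made between them. Outside the members, RHOB had a 6 h ratio of -0.05 and SMTN of -0.02, against 12 h values of -0.95 and -0.76.

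**Figure D5:**
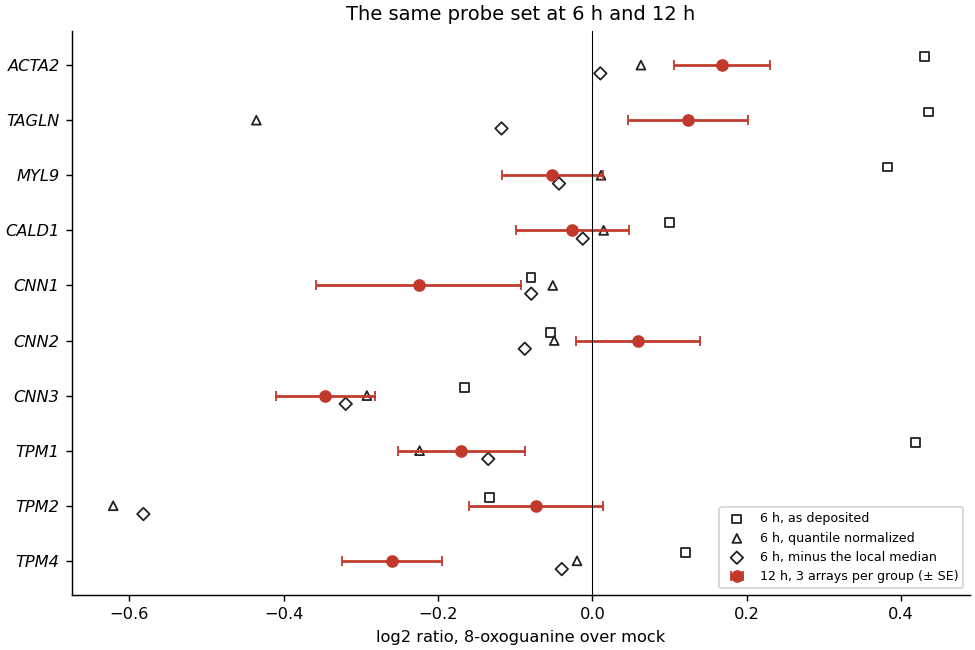
Log2 ratios of treated over mock for the probe set of each gene that is on both array types (horizontal), 1 row per gene. Red points with whiskers are the 12 h log2 fold changes ± SE (3 arrays per group) and open symbols the 6 h ratios as deposited, after quantile normalization and relative to the local median (1 array per group). CNN1, CNN3 and TPM2 are below 0 in all 4 values, while TAGLN, MYL9, CALD1, TPM1 and TPM4 change sign between the scalings at 6 h.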

How the data were processed

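Per the submitters' processing notes, MAS5 made the values the authors deposited, a linear intensity for each probe set on each array; its version and settings were not given in the sources used here. Array trimmed means lay between 500.1 and 500.5, which shows a common scaling. Times follow the time label, since the treatment protocol of the 12 h samples names 6 h. The deposited intensity was taken to log2 with no further scaling, leaving out control probe sets. At 12 h the 40th percentile of the mean log2 value was the lower limit, which removed 3498 probe sets and kept 5248. These were fitted by limma 3.58.1 (R 4.3.3) with lmFit, and eBayes used a trend on intensity. The two-sided p-values were adjusted by the Benjamini-Hochberg method, 0.05 being the threshold, and the procedure was tested on simulated data. Adjusted p-values of genes come from limma. Paralog differences had an exact permutation test, and 6 h had no test. Related genes were read through 1 probe set each. Named were all members, genes of each list that passed or were among its 4 largest changes, and the 3 genes closest in pattern to ACTA2, CNN3 and TPM4. The members and lists were chosen with earlier results of these data known. Alternatives covered scaling, filter, added constant, trend, replicate block and left-out arrays. Precision is limited by how few arrays there are. Those at 12 h are labelled technical replicates by extract, so their spread may not include that between cultures.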

Additional observations from a re-analysis of the deposited data

Results flagged for a closer look

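Among the genes named in the text, 7 probe sets had all treated arrays on one side of mock at 12 h and a 6 h ratio on the other. Groups did not overlap at 12 h for 33.9% of all probe sets tested, and how many of those also turned at 6 h was not counted. Deposited 6 h ratios of probe sets above 8000 had a median of 0.67. The 7 are thus a list to check and not a result about these genes. None of the 7 differences between times was tested, since the 6 h arrays are of another type and number 1 per treatment. Among the contractile genes this was TPM4 (212481_s_at), with a log2 ratio of 0.12 at 6 h and a log2 fold change of -0.26 at 12 h, and the 6 h value became -0.02 with quantile normalization. RHOC stood at 0.58 at 6 h (signals of 7081 on the treated and 4721 on the mock array; 0.27 with quantile normalization, 0.21 against neighbours of like signal) and at -0.50 at 12 h. TAGLN2 stood at 0.26 and -0.37, and CSRP2 at 0.18 and -0.34; their 6 h values were 0.19 and 0.18 with quantile normalization. CCN1 stood at 0.38 and -0.34, and its 6 h value turned to -0.14 with quantile normalization. A further list gene outside the naming rule, seen after its values were known, was ACTG2, with 0.53 at 6 h (-0.21 with quantile normalization) and -0.14 at 12 h. In the other direction, PDLIM5 stood at -0.66 at 6 h and 0.41 at 12 h, and ROCK1 at -0.30 and 0.22; neither passed the 12 h test (limma adjusted p = 0.0800 and 0.116).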

How the results depend on the processing

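At 12 h, 7 settings changed a processing choice and 6 left out 1 array. The count of member probe sets past the threshold, 2 as reported, was 1 without the intensity trend and 1 to 2 with an array left out. With the replicate number as a block it was 1, and 513 probe sets in all passed, against 695; the replicate numbers did not pair the arrays (correlations of deviations 0.08, -0.15 and -0.05), and not every array correlated best with its own number. Over all probe sets the count fell to 371 without 8-oxoguanine replicate 1, 386 without 8-oxoguanine replicate 2 and 451 without mock replicate 3. The count of pathway genes, 7 as reported, was 3 without the trend and 4 to 11 with an array left out; by list it ranged from 1 to 4 for smooth muscle differentiation, 0 to 2 for other actins, 2 to 2 for myosin and 0 to 4 for SRF targets. Signs turned only with an array left out, for genes that did not pass: CALD1 to 0.0014 (8-oxoguanine replicate 3) and 0.0072 (mock replicate 1; range -0.079 to 0.0072), CNN2 to -0.00026 (mock replicate 1; up to 0.112), TPM2 to 0.0020 (mock replicate 2; down to -0.128), TLN1 to -0.038 (mock replicate 2; up to 0.330) and ELK3 to 0.02 (8-oxoguanine replicate 2) and 0.029 (mock replicate 1; down to -0.213). The cause was not tested. Of 130 values for the members, 120 kept direction and side of the threshold. Averaging the probe sets of a gene left the paralog differences as they were, since each gene had 1. At 6 h the median log2 ratio of the 23 member probe sets, 0.07 as deposited, was 0.19 with median centring, -0.052 with quantile normalization, -0.088 against 500 neighbours, -0.081 against 100 (chosen after seeing the data) and 0.061 with a constant added before log2. With 1 array per treatment, 6 h values carry no replicate error.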
